A study of Bos taurus with 6 samples.

Results

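FOS, JUN and 8 further early response genes were followed in back muscle (longissimus dorsi) of 6 steers. The genes were FOS, FOSB, FOSL2, JUN, JUNB, JUND, EGR1, ATF3, IER3 and NR4A1. Every probe set of the array annotated with exactly 1 of these symbols was taken, which gave 21 of 24016 probe sets and covered all 10 genes, out of 9155 genes named on the array. The animals were 3 Japanese Black steers, a beef breed known for fat within the muscle, and 3 Holstein steers, a dairy breed. All were male, all had received energy-rich feed, and each was measured on 1 Affymetrix array; their ages are not given in the labels, and no other feed was analysed here. Values are the deposited linear signals in intensity units. Each difference subtracts the Holstein mean from the Japanese Black mean of log2(signal + 16), a scale on which dim probe sets differ by less than their signals do.

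Immediate early genes are transcribed within minutes of a stimulus from factors that are already present in the cell, without new protein synthesis. FOS and JUN family proteins pair through leucine zippers to form the transcription factor AP-1. In skeletal muscle they are known to respond to contraction, stretch, injury and stress. JUN and ATF2 can also dimerise with ATF3, while EGR1 and NR4A1 bind DNA through zinc fingers of their own.

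Of 10 listed markers of muscle fibres 8 were on the array, and all 8 were bright in every sample. ACTA1 (skeletal actin) read 13606 to 15099, and the summed signal of the 8 markers was 108191 to 115368 in Japanese Black and 109744 to 111065 in Holstein. Array medians were 48.5 to 54.7. Holstein 3 stood apart in its hybridisation controls, which are foreign transcripts added to every sample. That array had the highest value of all 9, at 1.06 to 1.52 times the highest of the other 5 arrays. It also had the most probe sets listed at 0, 372 against 247 to 319, and the lowest ratios of 3′ to 5′ control probe sets, 1.003 for actin (1.05 to 1.14 elsewhere) and 0.796 for GAPD (0.819 to 0.928 elsewhere). Holstein 3 further had the lowest summed signal of 8 adipocyte markers, 4242 against 7076 to 19695 in the Japanese Black animals and up to 15844 in Holstein. Of these 8 markers CFD was instead highest in Holstein 3, at 732 against 160 to 490 elsewhere. RBP4 read 173 there against 169 to 800 elsewhere, and the others were lowest in that animal. Because whole tissue was measured, fewer cells of a type and less RNA per cell cannot be told apart.

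FOS, an AP-1 subunit, was brightest in Holstein 3 at both of its probe sets. The brighter one read 3555, 3640.25 and 4986 in Japanese Black 1 to 3, and 2963, 4502 and 8890.4 in Holstein 1 to 3. Holstein 1 was the lowest animal and Holstein 3 the highest, so the breeds overlapped. The dimmer FOS probe set gave 769, 866 and 1229.7 in Japanese Black against 649, 1101 and 3456 in Holstein. Both probe sets ordered all 6 animals identically: Holstein 3, Japanese Black 3, Holstein 2, Japanese Black 2, Japanese Black 1, Holstein 1. At the brighter probe set the breed difference was -0.29 (SE 0.34), with a 95% interval from -1.065 to 0.48 and an adjusted p of 0.728 in limma. Without Holstein 3 the differences of the 2 probe sets were 0.13 and 0.14, opposite in sign to -0.29 and -0.53 with all animals.

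ATF3, a stress-induced repressor that dimerises with JUN proteins, had the widest distance between Holstein 3 and the rest among the 21 probe sets. It read 710.05, 954 and 1084 in Japanese Black, and 993, 1387 and 4695 in Holstein. The Holstein 3 value was 3.39 times the next animal, Holstein 2, while the other 5 animals lay within a 1.95-fold range. Its breed difference of -1.04 (SE 0.48, interval -2.13 to 0.06) had an adjusted p of 0.417, and it was -0.37 without Holstein 3.

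EGR1, a zinc finger activator induced through serum response elements, read 990.3, 944 and 1275 in Japanese Black and 924, 1233 and 2952 in Holstein at its brighter probe set. Holstein 3 was 2.32 times the highest other animal, and the other 5 lay within 1.38-fold of each other. The dimmer EGR1 probe set read 114, 119 and 103 in Japanese Black and 133, 117 and 221 in Holstein. Holstein 3 was again highest, but the order of the others differed: Holstein 1 was lowest at the brighter probe set and second highest at the dimmer one. The differences were -0.49 (SE 0.37, adjusted p 0.578) and -0.39 (SE 0.23, adjusted p 0.489) by limma. Without Holstein 3 they were -0.01 and -0.14.

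JUNB, an AP-1 subunit that is a weaker activator than JUN at many sites, read 2008, 1517 and 1888 in Japanese Black and 1419, 1626 and 3494 in Holstein. Holstein 1 and 2 lay within the range of the Japanese Black animals or below it, and Holstein 3 was 1.74 times the next animal. The difference of -0.16 (SE 0.30, interval -0.85 to 0.53, adjusted p 0.839) was 0.24 without Holstein 3. FOSB, a FOS relative known for a long-lived splice form, had 2 probe sets that disagreed. The dimmer one read 49.6, 49.7 and 76.4 against 50.6, 56.2 and 146, again with Holstein 3 on top at 1.91 times the next animal. The brighter FOSB probe set read 113, 105 and 63.9 against 101, 118 and 123, where Holstein 3 exceeded Holstein 2 by 1.03 times and Japanese Black 3 stood lowest. Neither FOSB difference passed, with adjusted p of 0.686 and 0.602.

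**Figure D1:**
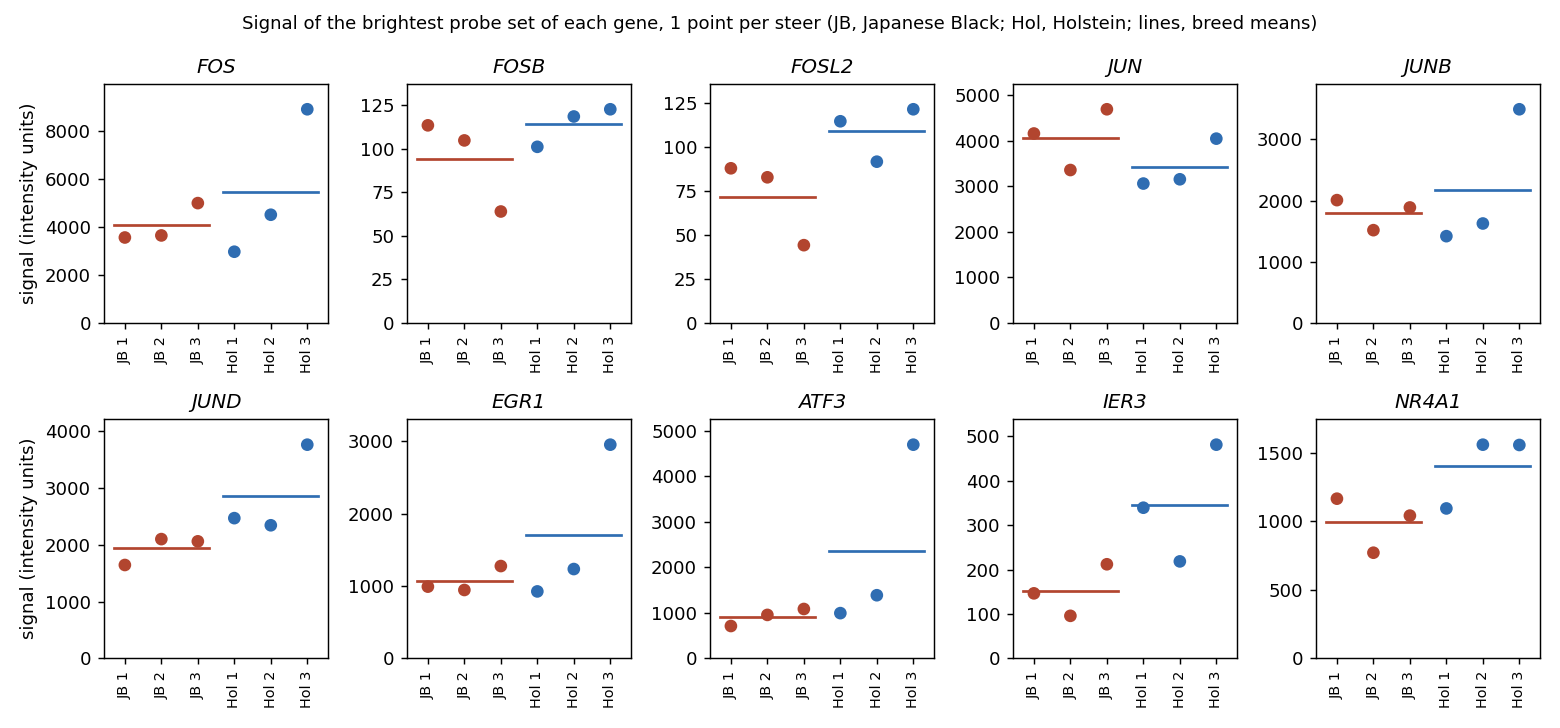
Signal in intensity units (vertical axes from 0) of the brightest probe set of each of the 10 genes, with 1 point per steer in red for Japanese Black and blue for Holstein, and a line at each breed's mean. FOS, JUNB, EGR1 and ATF3 have a single high animal, Holstein 3, whereas JUN has Japanese Black 3 highest at 4687 and NR4A1 has Holstein 2 and 3 side by side.

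For IER3, JUND, NR4A1 and FOSL2, at the brightest probe set of each, the Holstein mean was the higher one with or without Holstein 3. Without that animal the differences were -0.85, -0.32, -0.41 and -0.48, against -1.11, -0.53, -0.49 and -0.55 with it. ATF3 and the brighter FOSB and EGR1 probe sets also kept their sign, at -0.37, -0.22 and -0.01 without Holstein 3. IER3, an early response gene that modulates cell survival and NF-kappaB signalling, read 146, 95.7 and 212 in Japanese Black and 339, 218 and 481 in Holstein. The breeds did not overlap, although Japanese Black 3 at 212 and Holstein 2 at 218 were close. IER3 had the smallest p of the 20 probe sets tested: its difference was -1.11 (SE 0.32, interval -1.84 to -0.37), with an unadjusted p of 0.00786 and an adjusted p of 0.313. It stayed between -1.39 and -0.85 over the 6 fits that left out 1 animal each, where the smallest adjusted p was 0.159.

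JUND, the AP-1 subunit that is usually expressed without stimulation, read 1644, 2100.03 and 2061 in Japanese Black and 2469, 2344 and 3763 in Holstein at its brightest probe set. The groups did not overlap, and the difference was -0.53 (SE 0.20, interval -0.98 to -0.08, adjusted p 0.360). Its other probe sets, reading 79.3 to 113 and 11.4 to 30.4, had differences of -0.02 and 0.05, so the separation of the breeds was seen at 1 JUND probe set of 3. NR4A1, an orphan nuclear receptor that is induced in muscle by adrenergic signals, read 1166, 771 and 1042 in Japanese Black and 1095, 1560.42 and 1558 in Holstein. Holstein 1 lay below Japanese Black 1, so the breeds overlapped, and Holstein 2 and 3 were equal within 0.01 on the log2 scale. The NR4A1 difference of -0.49 (SE 0.21, interval -0.96 to -0.03) had an adjusted p of 0.384.

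FOSL2, a FOS relative that persists longer after a stimulus, read 87.9, 82.8 and 44.2 in Japanese Black and 115, 91.7 and 121 in Holstein at its brightest probe set. Here Japanese Black 3 was the low animal, and the lowest Holstein value was just above the highest Japanese Black value. The difference was -0.55 (SE 0.23, interval -1.08 to -0.02, adjusted p 0.392), or -0.30 without Japanese Black 3. A second FOSL2 probe set, between 54.02 and 71.2 in all animals, had a difference of -0.07. The remaining one, between 5.08 and 15.2, was among the dimmest 25% of the array and was not tested.

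JUN, the main AP-1 partner of FOS, had Holstein 3 highest at 3 of its 5 probe sets, by 1.16 times at most. Its brightest probe set read 4155, 3354 and 4687 in Japanese Black and 3057, 3151 and 4043 in Holstein. Japanese Black 3 was highest and Holstein 1 lowest, with overlap of the breeds. The difference was 0.25 (SE 0.16, adjusted p 0.535 in limma) toward Japanese Black, or 0.37 without Holstein 3. Among the 5 JUN probe sets Holstein 3 stood between 0.81 and 1.16 times the highest other animal. The corresponding range over both FOS probe sets was 1.78 to 2.81. Ratios near 1 were not particular to JUN: the brighter FOSB, the brightest FOSL2, the dimmest JUND and the NR4A1 probe set had 1.03, 1.06, 1.09 and 0.999. The JUN probe set with the smallest p read 1304, 1134 and 1518 against 936, 853 and 1231, a difference of 0.39 (SE 0.18, interval -0.02 to 0.81, adjusted p 0.418) toward Japanese Black. Differences of the remaining 3 JUN probe sets lay between -0.06 and 0.04. JUN and FOS were not tested against each other, so these ranges are a description of 6 arrays.

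**Figure D2:**
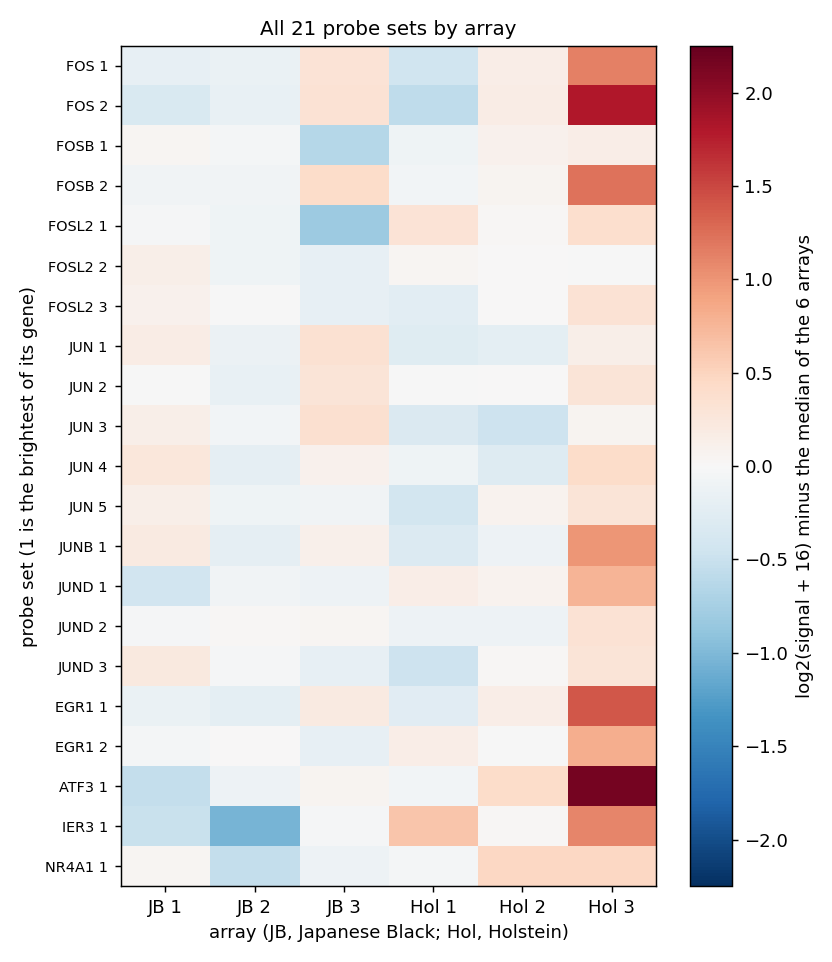
Colour shows log2(signal + 16) minus the median of the 6 arrays for all 21 probe sets (rows, numbered from the brightest of each gene) and 6 arrays (columns). The Holstein 3 column is darkest for ATF3, the dimmer FOS and the brighter EGR1 probe set. It is pale for the 5 JUN rows, where it lies within 0.30 of the highest other array.

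Over all member probe sets tested, 0 of 20 passed an adjusted p of 0.05 in limma, where 0.0167% of the 18012 probe sets passed. At an unadjusted p of 0.05 there were 4 of 20, all lower in Japanese Black (IER3, JUND, NR4A1 and FOSL2), where 5.28% of all probe sets were lower at that level and 12.6% differed in either direction. The plain t-test called 0 members after adjustment and gave 0 at an unadjusted p of 0.05. The mean was lower in Japanese Black for 15 of 20 member probe sets, against 49.0% of all those tested. The breeds did not overlap for 3 of the 20 (IER3, JUND and FOSL2, 1 probe set each), all with Japanese Black lower; the share over all probe sets was 8.84% in that direction and 19.8% in both. The median difference of the 20 was -0.28, and that of all probe sets 0.01. The median of the 20 was -0.14 with array weights, and it was -0.49 with 1 probe set per gene. Without Holstein 3 the median of the 20 was 0.06, and without any of the other animals it lay between -0.44 and -0.23. With 1 probe set per gene, the brightest, the median stayed below 0 without Holstein 3, at -0.27.

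**Figure D3:**
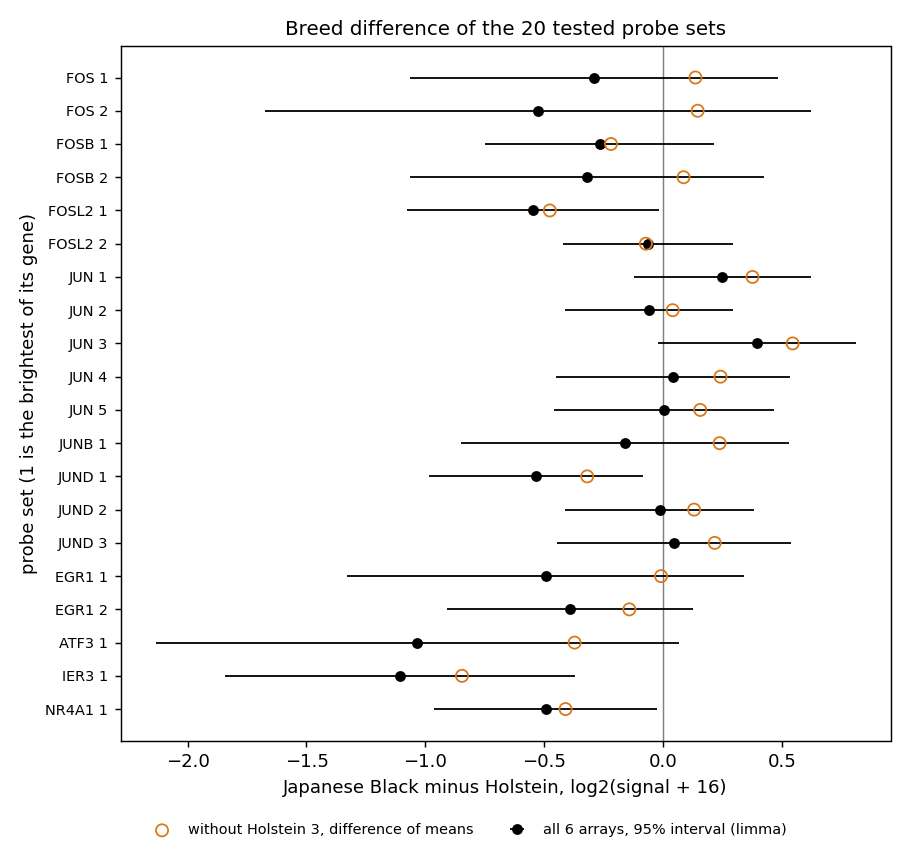
Black points give the Japanese Black minus Holstein difference on the log2(signal + 16) scale for the 20 tested probe sets, with limma's 95% interval, and orange circles give the difference of means without Holstein 3. The intervals of 4 probe sets, of FOSL2, JUND, IER3 and NR4A1, exclude 0 before adjustment; leaving out Holstein 3 moves FOS from -0.29 to 0.13 and ATF3 from -1.04 to -0.37.

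Counting arrays instead of breeds, Holstein 3 was the highest of the 6 animals for 16 of the 20 tested probe sets, where it was highest for 24.3% of all probe sets. Japanese Black 3, the highest animal for 31.4% of all probe sets, was highest for 2 members, both of JUN. Holstein 2 was highest for 1 (NR4A1) and Japanese Black 1 for 1 (FOSL2), where their shares over all probe sets were 10.8% and 9.19%.

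Holstein 3 exceeded every other animal by at least 1 on the log2 scale at 3 of 20 tested member probe sets, those of ATF3, FOS (dimmer) and EGR1 (brighter). Over all tested probe sets this was so for 30, or 0.167%. Among those 30 ATF3 ranked 7 by the size of the distance, FOS 11 and EGR1 18. The other 27 carried 20 named genes besides the members. They included BOLA-DQB1 and BOLA-DQA5 (MHC class II chains), IFI6 and ISG15 (interferon-induced genes), and TRIB1, MYC and SGK1, which belong to lists described below. The distance of Holstein 3 from the next animal was larger than in any hybridisation control, where it reached 0.58, at 8 member probe sets, namely both of FOS, both of EGR1, 1 each of FOSB and JUND, and those of JUNB and ATF3. Over all tested probe sets 0.872% exceeded that value. The part of array-wide differences in the result was not tested.

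**Figure D4:**
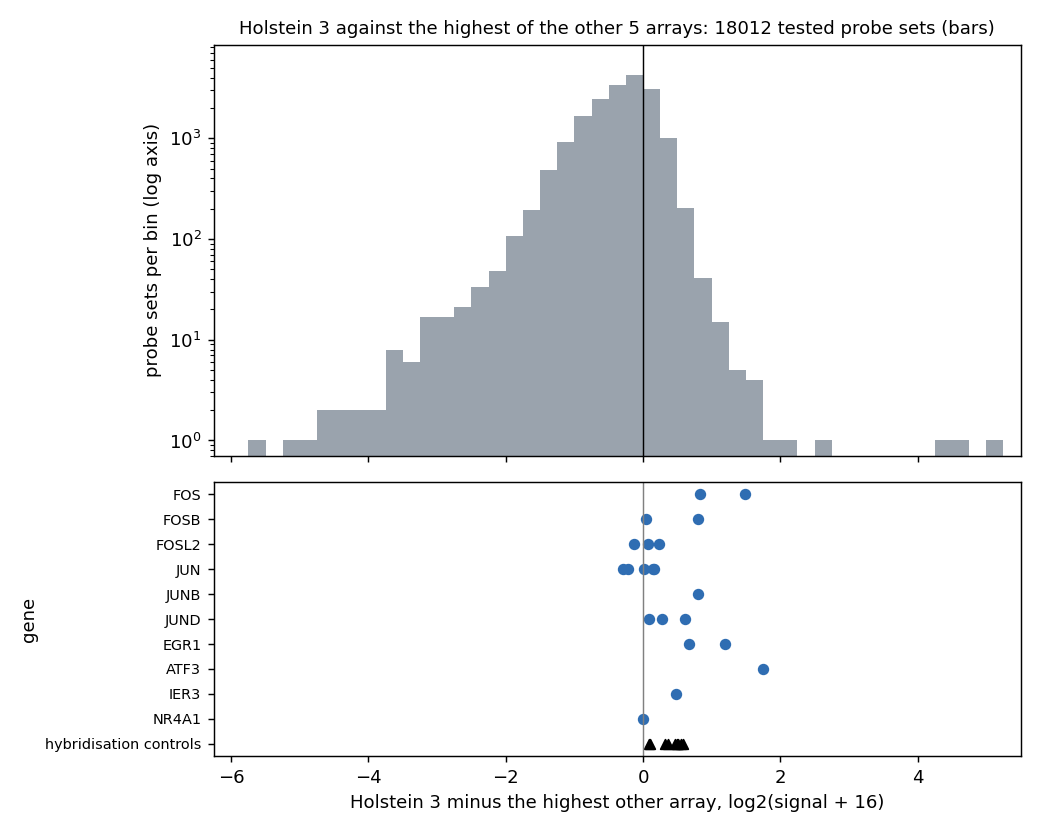
Upper panel: number of tested probe sets (log axis) by the difference between Holstein 3 and the highest of the other 5 arrays, on the log2(signal + 16) scale; lower panel: the same difference for each member probe set (blue) and each of 9 hybridisation controls (black triangles). ATF3 lies farthest right among the members at 1.75, the controls end at 0.58, and the 5 JUN probe sets lie between -0.30 and 0.16.

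With Holstein 3 set aside, the spread over the other 5 animals differed from gene to gene. The ratio of highest to lowest of these 5 was 1.38 for the brighter EGR1 probe set, 1.42 for JUNB, 1.53 for the brightest JUN and 1.68 for the brighter FOS probe set. It was 1.95 for ATF3, 2.02 for NR4A1 and 3.54 for IER3. Japanese Black 3 was highest of these 5 for 8 of the 20 tested probe sets, near its share of 35.6% over all probe sets, and Japanese Black 2 for 0 of 20, where its share over all probe sets was 15.7%.

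Pathway genes around the 10 members were read from 5 lists with 68 different genes tested, each at its probe set of highest mean. In limma 0 passed the adjusted threshold and 4 had an unadjusted p under 0.05, where 12.6% of all probe sets did. Holstein 3 was highest for 23 of 68, against 24.3% of all probe sets. The counts by direction below stand beside 49.0% of all probe sets with the lower mean in Japanese Black. The plain t-test called 0 of all probe sets after adjustment. In the list of further early response transcription factors, 7 of 11 genes had the lower mean in Japanese Black, and the median difference was -0.06. For 6 of these 11 genes Holstein 3 was the highest animal, and its centred list mean of 0.45 was the highest of all arrays. MYC, a growth-promoting factor, read 133, 570.28 and 346 in Japanese Black and 480.01, 429.7 and 1658 in Holstein. That is a high value in Holstein 3 and a low one in Japanese Black 1; the difference of -1.18 (SE 0.58) had an adjusted p of 0.431. MAFF, a small MAF protein without an activation domain, had a difference of -0.47, SRF, the serum response factor that drives FOS and EGR1, one of 0.25, and FOSL1 one of -0.27.

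Other leucine zipper partners were split: 4 of 8 had the lower mean in Japanese Black, Holstein 3 was highest for 2, and the median difference was -0.09. After MAFF the smallest p belonged to CREB1 (-0.27), the cAMP-responsive activator of FOS, ATF2 (0.23), a stress kinase substrate that pairs with JUN, and BATF (-0.23), an AP-1 factor of leukocytes. The list of upstream kinases and factors leaned the other way, with 13 of 18 higher in Japanese Black, a median of 0.13 and Holstein 3 highest for 4. MAP2K6, a kinase that activates p38, read 1766, 1928 and 2424 in Japanese Black and 1308, 1162 and 1523 in Holstein. The breeds did not overlap, with a difference of 0.61 (SE 0.17) and an adjusted p of 0.310. MEF2A, a muscle transcription factor controlled by p38, had a difference of 0.43, the related kinase MAP2K3 one of -0.44 and the ERK-activated kinase gene RPS6KA1 one of 0.47.

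Feedback inhibitors that are induced together with early genes had lower means in Japanese Black for 13 of 15, and their median difference was -0.23. For 6 of the 15 Holstein 3 was the highest animal, and its centred list mean of 0.26 was the highest of all arrays. TRIB1, a pseudokinase that promotes protein degradation, read 958, 952 and 1222 in Japanese Black and 1343, 1141 and 3612 in Holstein. As for ATF3 and FOS, the high animal was Holstein 3. The TRIB1 difference was -0.76 (SE 0.38, adjusted p 0.431), or -0.25 without Holstein 3. GADD45A, a growth arrest gene, had a difference of 0.60, its relative GADD45B one of -0.47, and DUSP10, a phosphatase of stress kinases, one of -0.46. The median of this list was -0.13 without Holstein 3.

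For secreted, enzyme and survival products the Japanese Black mean was the lower one in 15 of 19 genes. Their median difference was -0.37, or -0.17 without Holstein 3. That animal was the highest for 7 of the 19, and its centred list mean of 0.40 was the highest of all arrays. SGK1, a kinase induced by serum and glucocorticoids, read 207, 354 and 399.98 in Japanese Black and 865, 593 and 1789 in Holstein. All Holstein animals lay above all Japanese Black animals; the difference of -1.61 (SE 0.39) had an adjusted p of 0.287 and was -1.17 without Holstein 3. TNFRSF12A, a receptor induced in injured muscle, read 238, 912 and 366 against 1681, 550.4 and 2121, with a difference of -1.50 (SE 0.56, adjusted p 0.360). The remaining genes with the smallest p were MT2A, a metallothionein (-0.84), and RHOB, a small GTPase (-0.42).

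**Figure D5:**
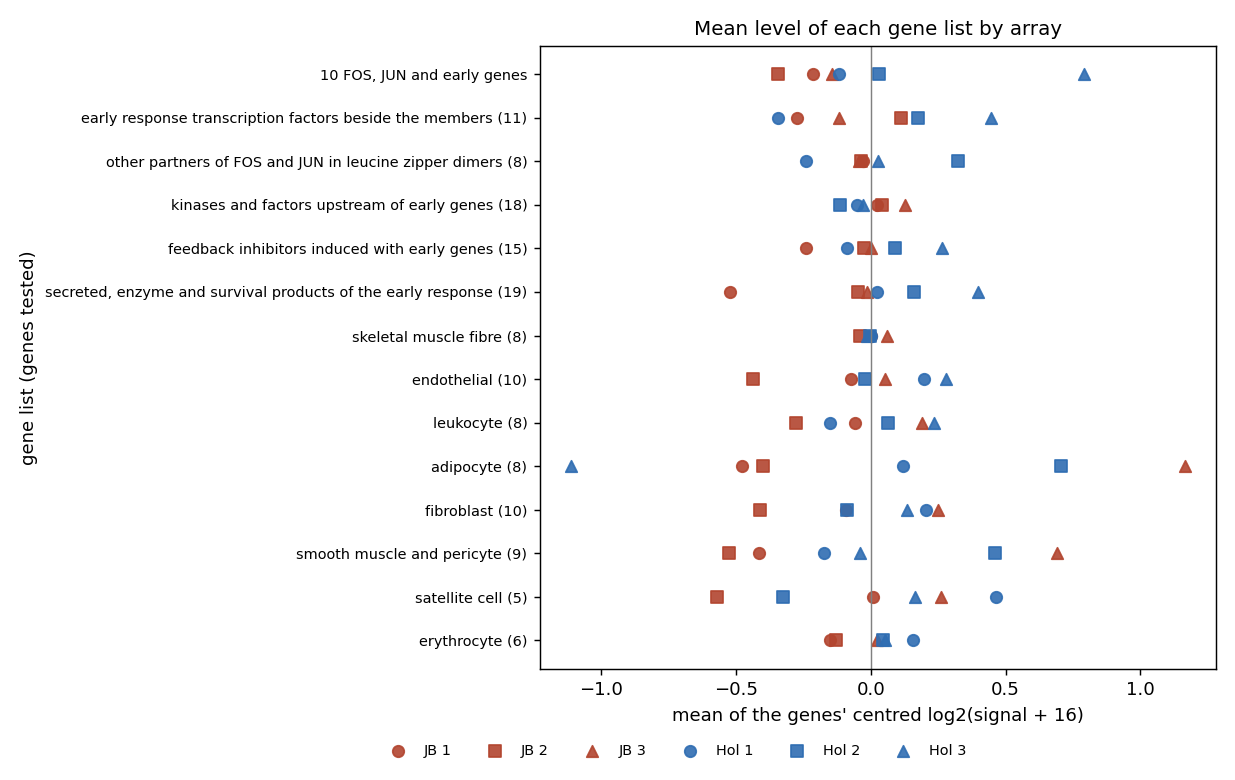
Mean of the genes' centred log2(signal + 16) for the 10 members, 5 pathway lists and 8 lists of cell type markers (rows), with 1 symbol per array in red for Japanese Black and blue for Holstein. For the members Holstein 3 lies at 0.79 and the other arrays between -0.34 and 0.03; for adipocyte markers the same animal is lowest at -1.11.

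Markers of other cells were read beside these values. The mean level of the 10 members, centred over the arrays, was 0.79 in Holstein 3 and between -0.34 and 0.03 elsewhere. In the same animal the mean of 10 endothelial markers was 0.28 and that of 8 leukocyte markers 0.23, in both lists the highest of the 6. The summed signal of the endothelial markers was 2493 to 3797 in Japanese Black and 3492 to 4479 in Holstein, and that of the leukocyte markers 427 to 647 and 487 to 718. Of the 10 endothelial markers, 5 were highest in Holstein 3. CDH5, KDR and EMCN were highest in Holstein 1, and PECAM1 and VWF in Japanese Black 3. Of the 8 leukocyte markers, CSF1R, CD3E and CD8A were highest in Holstein 3, at 230, 109 and 51.9. PTPRC and ITGAM were lowest there, at 75.7 and 12.95. Of all marker genes only SLC4A1 of the erythrocyte list was at 0 in any array, and HBB (beta globin) read 22.5 to 137. The part of these cell types in the members' values was not tested.

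Among 8040 other genes, the 6 whose centred profile over the 6 arrays lay closest to the mean profile of the 10 members were HRH1, CRYBB2, VOPP1, TBRG4, TSPAN18 and EDN1. Likeness was the root mean square distance in log2 units, from 0.05 for HRH1 to 0.11 for EDN1. HRH1, a histamine receptor, read 46.2, 42.1 and 54.1 in Japanese Black and 49.2, 61.1 and 116 in Holstein. EDN1, the vasoconstrictor peptide endothelin, read 114, 79.7 and 102 against 108, 114 and 189. That Holstein 3 was highest in all 6 genes follows from how they were chosen, since the mean profile is itself highest there. JUND was the member nearest to the mean profile, at 0.17, and 71 of the other genes lay closer. ATF3 was the farthest, at 0.52, followed by IER3 at 0.45 and JUN at 0.40. This distance counts the size of a rise as well as its shape. Holstein 3 minus the highest other array was 1.75 for ATF3 and -0.21 for the brightest JUN probe set.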

How the data were processed

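Total RNA of 6 muscle samples was treated with DNase, labelled with biotin and hybridised to Affymetrix arrays, as the labels' protocols state. Each deposited value is a linear intensity of 1 probe set on 1 array. The submitters' processing notes name GCOS 1.1.1 and Affymetrix Expression Console 1.1; the summarising algorithm, any scaling target and a genome build are not given in the sources used, so no coordinates or sequences are printed. After removal of 112 control probe sets, 16 was added, log2 taken and the dimmest 25% by mean left out, leaving 18012 of 24016. Breed differences were fitted in R 4.3.3 by limma 3.58.1 (eBayes with trend, two-sided, Benjamini-Hochberg over all probe sets). The number of arrays limits precision. Symbols came from the platform annotation: 13292 probe sets had 1 symbol, 86 several and 10638 none. Of those with 1 symbol, 13263 matched the RefSeq table of ARS-UCD2.0 by gene ID, and no symbol changed.

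Members and lists were chosen with earlier results of these data known. All member probe sets are given; per list up to 4 genes of smallest p are named, and the 6 genes most like the members. Genes named for the Holstein 3 value, the endothelial and leukocyte markers, ACTA1, HBB and SLC4A1 were picked after their values were seen. No label says how or when the tissue was taken. Alternatives were other offsets, filters, scalings, variance models, array weights, the plain t-test, 1 probe set per gene and leaving out each array. Counts by array under these were chosen after seeing the data. Python 3.11.15 and matplotlib 3.10.9 drew the figures.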

Additional observations from a re-analysis of the deposited data

How the results depend on the processing

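No paired analysis was possible because no label says which animals form a pair, although the design text speaks of a paired test. The count of member probe sets past the adjusted threshold was 0 in every alternative run. Over all probe sets the count of 3 was 0 with an offset of 1, with the dimmest 50% left out and with the plain t-test, 10 with array weights, and 0 to 15 when 1 animal was left out (15 with Holstein 2 left out, 2 with Holstein 1 and 1 with Holstein 3 left out, and 0 on leaving out each Japanese Black animal). The number of members whose breeds did not overlap, 3 of 20, was 2 after median centring and 4 to 6 with 1 animal left out, where fewer values have to separate (25.3% to 33.9% of all probe sets then did). The members' median of -0.28 ranged from -0.44 to 0.062 on leaving out 1 animal, the latter without Holstein 3. With 1 probe set per gene the median without Holstein 3 was -0.27. Holstein 3 was highest for 14 of 18 members with the dimmest 50% left out and for 17 of 21 with no filter. In the other alternatives that kept Holstein 3 and all probe sets of a gene, the count was 16 or 17 of 20. With 1 probe set per gene it was 8 of 10. The share over all probe sets was 23.3% to 28.7% in these alternatives.

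No member difference passed in any run, so every change of sign below is in a difference that had not passed. The dimmest JUN probe set had -0.0056 with an offset of 64, and the fourth JUN probe set -0.057 after quantile normalization. With array weights JUNB had 0.0012 and the second JUND probe set 0.051. With 1 animal left out, the ranges that crossed 0 were -0.66 to 0.13 and -1.05 to 0.14 for FOS, -0.55 to 0.085 for the dimmer FOSB, -0.15 to 0.0039 for the second FOSL2 and -0.41 to 0.24 for JUNB. For JUN they were -0.18 to 0.044, -0.11 to 0.24 and -0.20 to 0.15, and for the dimmer JUND probe sets -0.088 to 0.13 and -0.17 to 0.22. The cause was not tested.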

Other observations

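ACTC1, the cardiac actin that skeletal muscle expresses during development and regeneration, was among the 30 probe sets with Holstein 3 at least 1 above the next array, but it did not follow the FOS pattern among the rest. Its signal was 850 in Japanese Black 1, 9941 in Japanese Black 2, 835 in Japanese Black 3, 10339.5 in Holstein 1, 713 in Holstein 2 and 22468 in Holstein 3. The same 3 animals, Japanese Black 2, Holstein 1 and Holstein 3, were the highest for TNFRSF12A, at 912, 1681 and 2121. In FOS, by contrast, Holstein 1 was the lowest animal. HMOX1, the stress-induced haem oxygenase, was highest in Japanese Black 2, at 3645 against 446 to 1264 in the others. These 3 genes were picked after their values were seen, and no test was run on the pattern.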
